A study of Mus musculus with 26 samples.

Results

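Interferon regulatory factors (IRF) and signal transducers and activators of transcription (STAT) are the DNA-binding factors at the end of interferon and cytokine signaling. The 8 genes described here, Irf1, Irf2, Irf3, Irf7, Irf9, Stat2, Stat3 and Stat6, were taken from the count table by symbol, ignoring case, out of 55391 rows with a gene symbol. All 8 passed the filter on low counts, as did 14264 genes in all. Transcripts were measured by RNA sequencing in EA1, EA2 and EA3, murine lung cancer cell lines that carry the EML4-ALK fusion and grow in culture. EA1 came from a mouse with wild-type p53, and EA2 and EA3 from p53-null mice. Cells of each line received 100 nM alectinib, an inhibitor of the ALK kinase, or the solvent DMSO at 0.1% as control, and each line and treatment was sampled on days 1, 2, 3 and 5, with 1 library each time. The 4 days stand in for replicates, so each group of line and treatment has n = 4. Nothing in the labels says that the days came from separate cultures. The p-values of alectinib effects measure how the difference between treatments varies from day to day. Those of DMSO levels measure the spread between days, and those of slopes the scatter about a fitted line. The 24 libraries held 5780062 to 11732401 counts each (median 9252878). A further pair of libraries, labelled EA3 day 7, correlated better with EA2 (median r = 0.955 with DMSO and 0.971 with alectinib) than with EA3 (0.867 and 0.861), and was left out of the comparisons.

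Type I interferons bind a receptor whose JAK1 and TYK2 kinases phosphorylate STAT2, which acts with IRF9 in the factor ISGF3. IRF3 and IRF7 sit upstream, where kinases such as TBK1 activate them after viral nucleic acids are sensed, and they switch on the interferon genes. IRF1 drives antigen presentation and other interferon gamma responses, IRF2 can occupy the same sites and oppose it, STAT3 answers to interleukin 6 and its relatives, and STAT6 to interleukins 4 and 13.

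In GENCODE vM21 (mm10) the members lie on 5 chromosomes: Irf1 at chr11:53770014-53778374 and Stat3 at chr11:100885098-100939540, Stat6 at chr10:127642986-127660957 and Stat2 at chr10:128270559-128292849, Irf3 at chr7:44997648-45002848 and Irf7 at chr7:141262706-141266481, Irf2 at chr8:46739732-46847458 and Irf9 at chr14:55603571-55610030. Irf7 and Stat3 are on the minus strand and the others on the plus strand.

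ISGF3 and the IRFs read an interferon-stimulated response element, whose core was searched as GAAA, any 2 bases and GAAA, on both strands of RefSeq promoters (GRCm38.p6), from 250 bases before to 50 after the start site. That core was in 3.44% of 32851 promoters and, among the members, in those of Stat2 and Irf2. The palindrome TTCNNNGAA, which STAT dimers bind, was in 8.30% of promoters and in those of Irf1 and Irf2. The wider palindrome that STAT6 prefers, TTC and GAA with 4 bases between, was in 6.95% and in those of Irf9 and Stat2, and the AP-1 motif TGANTCA in 7.81% and in no member's promoter. The 4 promoters with a match are shown. They are chr10:128270248-128270547 for Stat2, chr8:46739495-46739794 for Irf2, chr11:53769764-53770063 for Irf1 and chr14:55603735-55604034 for Irf9, all on the plus strand, with the matched bases in capitals.
Stat2: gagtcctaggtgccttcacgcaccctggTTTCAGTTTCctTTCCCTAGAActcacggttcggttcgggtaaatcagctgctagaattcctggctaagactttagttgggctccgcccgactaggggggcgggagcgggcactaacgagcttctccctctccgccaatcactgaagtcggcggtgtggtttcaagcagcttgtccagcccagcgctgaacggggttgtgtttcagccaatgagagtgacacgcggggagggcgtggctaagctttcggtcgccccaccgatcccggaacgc
Irf2: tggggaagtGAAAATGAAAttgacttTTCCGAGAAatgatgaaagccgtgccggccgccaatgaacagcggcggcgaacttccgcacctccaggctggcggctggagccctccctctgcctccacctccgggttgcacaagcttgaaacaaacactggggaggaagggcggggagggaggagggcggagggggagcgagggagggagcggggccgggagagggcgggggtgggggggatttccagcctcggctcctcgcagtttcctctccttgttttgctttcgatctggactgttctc
Irf1: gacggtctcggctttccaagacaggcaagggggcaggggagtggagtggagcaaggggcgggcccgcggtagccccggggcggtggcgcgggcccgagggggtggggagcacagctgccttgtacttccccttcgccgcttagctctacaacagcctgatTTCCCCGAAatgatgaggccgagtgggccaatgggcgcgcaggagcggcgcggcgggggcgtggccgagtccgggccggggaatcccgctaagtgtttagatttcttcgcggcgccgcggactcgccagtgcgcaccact
Irf9: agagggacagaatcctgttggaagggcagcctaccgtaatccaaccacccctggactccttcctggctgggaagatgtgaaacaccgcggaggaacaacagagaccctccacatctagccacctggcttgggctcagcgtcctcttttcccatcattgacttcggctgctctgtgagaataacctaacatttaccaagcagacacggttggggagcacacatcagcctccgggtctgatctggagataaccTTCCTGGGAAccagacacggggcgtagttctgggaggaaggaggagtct
In the Stat2 promoter the first capitals are the response element core read on the minus strand, and the second are the STAT6-type palindrome. In the Irf2 promoter the core begins at position -241 from the start site and the STAT palindrome at -224. The capitals are the STAT palindrome for Irf1 and the STAT6-type palindrome for Irf9, which begins 1 base after the start site. A further promoter listed for Irf1 and for Irf9, and the promoters of Irf3, Irf7, Stat3 and Stat6, held none of the 4 motifs. These are matches of letters only, and binding was not measured.

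In DMSO cultures the members covered a wide range of levels. Counts scaled to the size of each library with TMM factors (CPM) were divided by exon length so that genes could be compared, and all levels in this paragraph are CPM per kb. By its mean Stat6 was the most abundant member in each line, at 29.9 ± 3.67 (mean ± SD, n = 4 here and below) in EA1, 21.7 ± 1.90 in EA2 and 20.4 ± 2.25 in EA3. Stat3 followed in EA1 at 16.1 ± 3.82, ahead of Irf3 at 12.9 ± 3.16, Irf1 at 7.14 ± 2.71 and Irf2 at 6.08 ± 0.621. The ISGF3 subunits were far lower there, with Irf9 at 1.97 ± 0.424 and Stat2 at 1.38 ± 0.712. Irf7 was the lowest member in each line, at 0.289 ± 0.223 in EA1, 0.130 ± 0.0528 in EA2 and 0.503 ± 0.479 in EA3. In EA1 the SD ranges of Stat3, Irf3, Irf1 and Irf2 overlapped from each gene to the next, as did those of Irf9 and Stat2, so the order of these neighbours is not settled. Irf1 ranked second in EA2, at 16.5 ± 3.12, and in EA3, at 17.6 ± 7.28. In EA2 its range overlapped that of Stat3 (12.9 ± 0.643), and that of Irf3 (7.41 ± 1.14) overlapped that of Irf2 (5.86 ± 1.08). In EA3 the ranges of Stat6, Irf1, Stat3 (17.1 ± 4.16) and Irf3 (11.9 ± 3.91) overlapped from each gene to the next, as did those of Stat2 (2.69 ± 0.627) and Irf9 (2.09 ± 0.543).

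**Figure D1:**
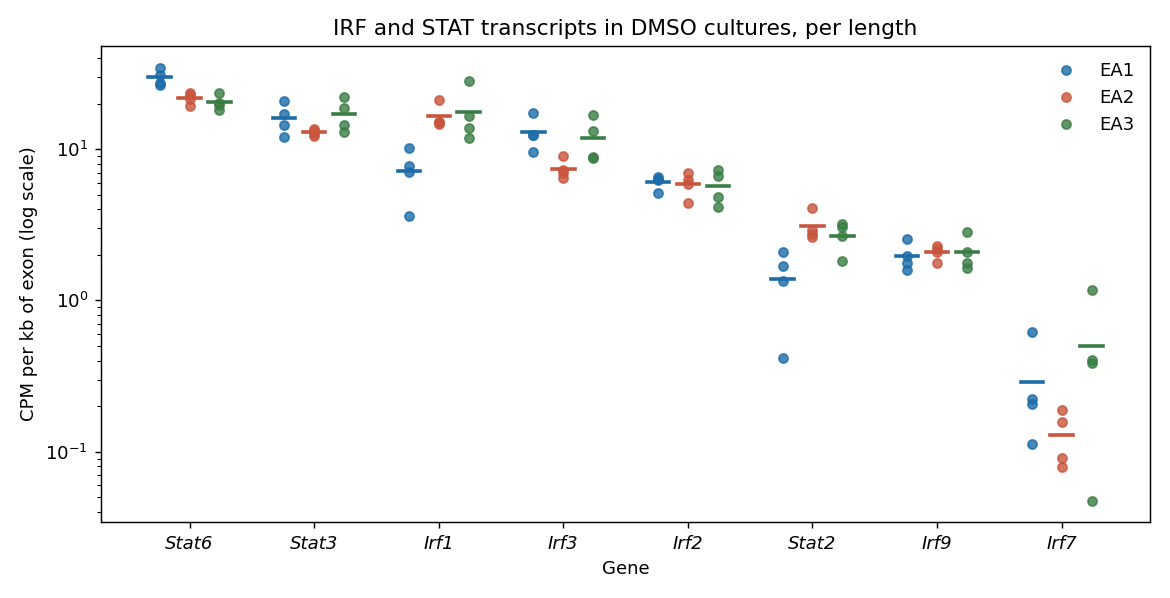
Levels of the 8 members in DMSO cultures, in CPM per kb of exon on a log axis, with 1 point per day (n = 4 per line) and a bar at the mean. The mean of Stat6 is the highest and that of Irf7 the lowest in each line, though the highest single point in EA3 is Irf1 on day 5, and Irf1 in EA1 lies below Irf1 in EA2 and EA3.

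EA1 had less Irf1 and more Stat6 than EA2 and EA3, and less Stat2 and more Irf3 than EA2. Irf1 in EA1 DMSO cultures read 28.1, 30.6, 14.3 and 40.5 CPM on days 1, 2, 3 and 5, against 60.1, 60.05, 84.1 and 57.9 CPM in EA2 and 47.1, 65.7, 54.9 and 112 CPM in EA3. Every EA2 and EA3 value was above the highest EA1 value. The log2 difference from EA1 was 1.18 ± 0.32 (SE) in EA2 (adjusted p = 0.0133, by the quasi-likelihood test of edgeR and the Benjamini-Hochberg method, as for all adjusted p-values here) and 1.31 ± 0.32 in EA3 (adjusted p = 0.0095). Stat2 was at 7.95, 12.4, 2.46 and 9.95 CPM in EA1 and at 17.2, 15.6, 16.2 and 24.1 CPM in EA2, with no overlap. This log2 difference was 1.13 ± 0.38 (adjusted p = 0.0383), while that of EA3 from EA1, 0.97 ± 0.38, did not pass (adjusted p = 0.0864) unless the days were paired (adjusted p = 0.0305). Stat6 went the other way and was lower than in EA1 by 0.50 ± 0.16 on the log2 scale in EA2 (adjusted p = 0.0331) and by 0.55 ± 0.16 in EA3 (adjusted p = 0.0266). Irf3, at 22.03 to 31.1 CPM in EA2 DMSO cultures, was lower than in EA1 (33.0 to 59.3 CPM), with a log2 difference of -0.84 ± 0.25 (adjusted p = 0.0239).

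Of the 8 members, 4 differed between EA2 and EA1 in DMSO, where 29.3% of 12886 genes did (14.2% higher and 15% lower), and 2 between EA3 and EA1, where 22.2% did (12.4% and 9.76%). With library size as the only scaling, EA2 against EA1 had 2390 genes higher and 1438 lower, in place of 1833 and 1939, and 2 members higher and 0 lower, in place of 2 and 2. EA3 against EA2 then had 1529 genes higher and 1862 lower, in place of 1887 and 1418, and the median of all genes was 0.16 and -0.11 in these comparisons, in place of -0.02 and 0.04. Between EA3 and EA2 0 members passed, where 25.6% of genes did, although 2 had an unadjusted p under 0.05 (Irf3 and Irf7) and DESeq2 called 1. Irf3 was higher in EA3 than in EA2 by 0.73 (adjusted p = 0.0506), which became 0.0334 with the days paired. Irf2, Irf9 and Stat3 passed in none of the 3 comparisons, and their log2 differences lay between -0.36 and 0.44. Irf7 passed in none either, with differences of -1.15 for EA2 against EA1 (adjusted p = 0.296), 0.77 for EA3 against EA1 (adjusted p = 0.491) and 1.92 for EA3 against EA2 (adjusted p = 0.0838). Several of these calls were lost under an alternative. Without day 2 the adjusted p of Irf1 was 0.0541 in EA2 and 0.0636 in EA3, and without day 3 it was 0.0789 in EA2. Leaving out any day but day 3 ended the call of Irf3, any day but day 2 that of Stat2, any day that of Stat6 in EA2, and day 1, 2 or 3 that of Stat6 in EA3. With any 1 day left out, 1 member differed between EA2 and EA1. The Stat6 call also ended without the filter on low counts (adjusted p = 0.203 for EA2 and adjusted p = 0.156 for EA3), and for EA2 with at least 10 counts in every library (adjusted p = 0.057) or library size alone (adjusted p = 0.164).

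**Figure D2:**
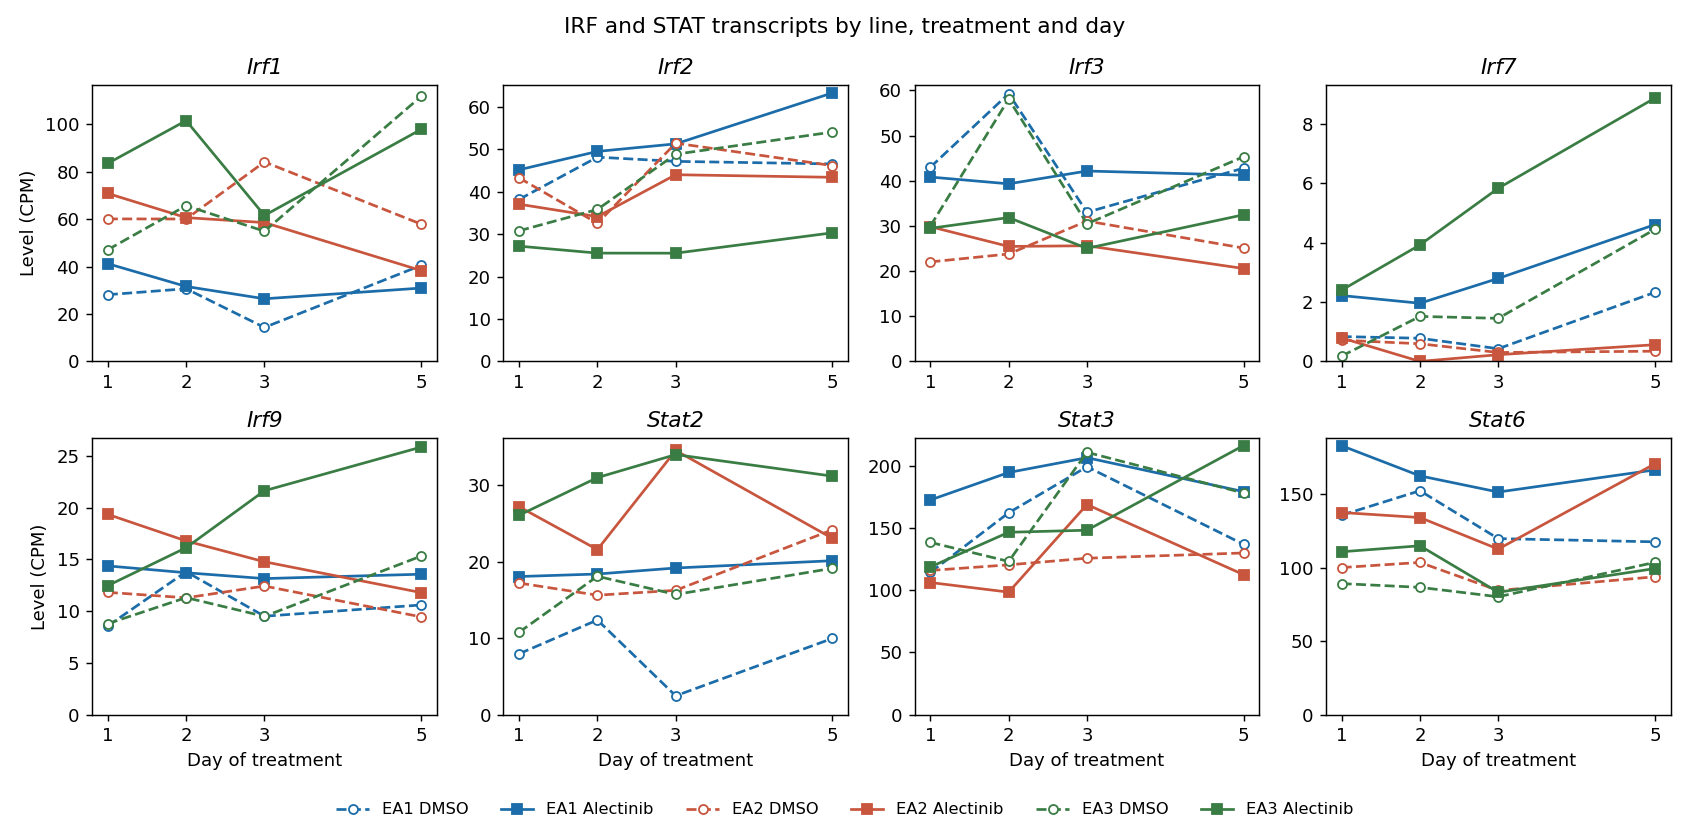
CPM of each member (linear axes that start at 0) against day of treatment, with open circles and dashed lines for DMSO and filled squares and solid lines for alectinib, 1 library per point. The alectinib lines of Stat2 in EA1 and EA3 lie above the DMSO lines on every day, and that of Irf2 in EA3 lies below.

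With alectinib Stat2 and Irf7 rose in EA1 and EA3, Irf9 rose in EA3, Stat6 rose in EA2 and Irf2 was lower in EA3. Of these calls, only that of Stat2 in EA1 held in every alternative fit. In EA1 2 of the 8 members passed the threshold, both higher (Irf7 and Stat2), where 33.6% of 14264 genes passed, 19% higher and 14.6% lower. In EA2 1 member passed (Stat6, higher), where 24.4% of genes passed, 13% higher and 11.3% lower. In EA3 4 members passed, with Irf7, Irf9 and Stat2 higher and Irf2 lower, where 32.6% of genes passed, 17.5% higher and 15.1% lower. With library size as the only scaling, 3060 genes were higher and 1666 lower in EA3, against 2493 and 2157 with TMM factors, and 3079 were higher and 1690 lower in EA1, against 2711 and 2080, and the median of all genes was 0.18 in EA3 and 0.16 in EA1. Treated and control cultures did not overlap for 1 member in EA1 (Stat2), 1 in EA2 (Stat6) and 2 in EA3 (Stat2 and Irf2), and for 31.4%, 26.8% and 23.5% of all genes. The median log2 fold change of the members in EA1, EA2 and EA3 was 0.33, -0.03 and 0.27, beside 0.06, 0.00 and 0.07 for all genes tested. These are bulk cultures, in which fewer cells with a transcript and less of it per cell cannot be told apart.

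**Figure D3:**
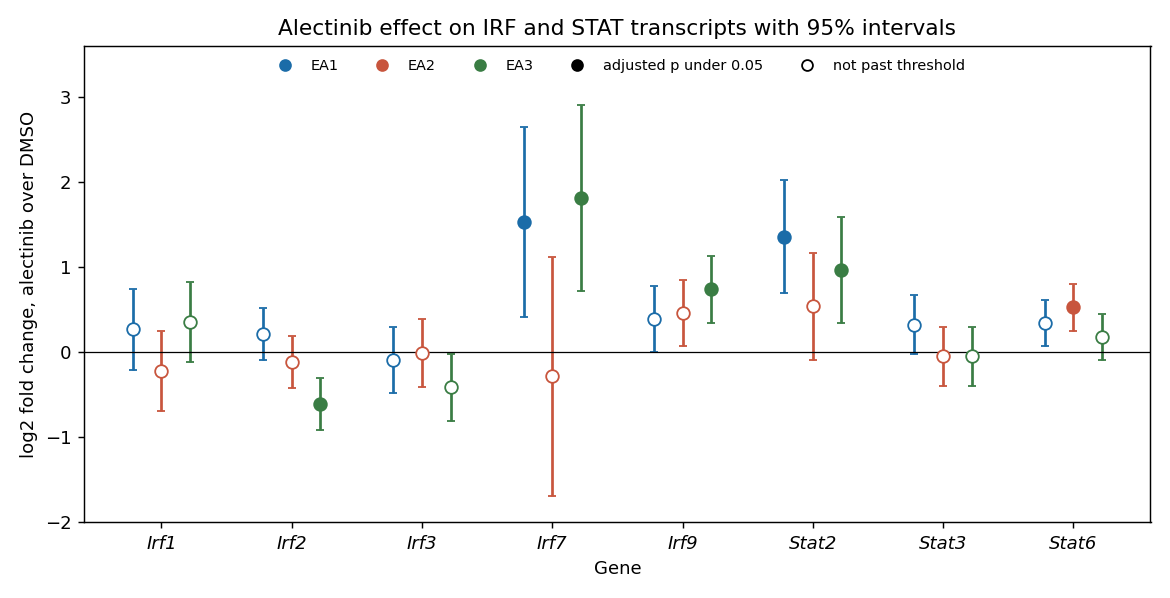
Log2 fold change of alectinib over DMSO for each member and line (n = 4 days each), with bars for the 95% interval and filled points past an adjusted p of 0.05. Stat2 and Irf7 are filled in EA1 and EA3, Stat6 in EA2, Irf9 in EA3 and Irf2, below 0, in EA3.

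The lines were checked against marker lists. Epithelial Krt18 was at 1854, 1618 and 1641 CPM on average in DMSO cultures of EA1, EA2 and EA3, and Epcam at 1.35, 0.494 and 132 CPM, so that this epithelial marker was nearly absent from EA1 and EA2. Cldn4 was at 0 in the EA2 controls. With alectinib Krt18 fell in EA1, EA2 and EA3, by 1.51, 1.79 and 1.125 on the log2 scale, and Krt8 fell by 2.61 in EA2. Cdh1 rose by 1.55 in EA2 and 0.645 in EA3, and Epcam rose by 2.45 in EA1. The leukocyte marker Ptprc did not exceed 0.358 CPM in any library, and the 7 leukocyte markers together reached at most 94.1 CPM, nearly all of it Cd68 (at most 91.6 CPM). The 3 endothelial markers together stayed at or below 9.06 CPM. Fibroblast markers were higher with alectinib, 5 of 6 tested (7 listed) in EA1 and in EA3, the lines where Stat2 and Irf7 rose. In EA2, where neither they nor Irf9 passed, 3 of 6 were higher. Without the filter on low counts all 7 markers were tested, and 6, 5 and 5 were higher in EA1, EA2 and EA3. These counts were not compared between lines by a test. Several markers passed the filter through the treated cultures alone, and 0 were left when at least 10 counts were required in every library. Col3a1 went from 7 to 21 counts per library to 458 to 3031 in EA1, from 3 to 7 to 4 to 27 in EA2 and from 0 to 1 to 2 to 223 in EA3. Dcn went from 0 to 1 counts per library to 9 to 114 in EA1 and to 8 to 447 in EA3. Their summed level went from between 9.09 and 44.1 to between 126 and 478 CPM in EA1, from between 58.4 and 71.5 to between 122 and 240 CPM in EA2, and from between 10.2 and 20.2 to between 84.7 and 274 CPM in EA3. Lum was at 0 in every DMSO library and in all of EA2, Col1a2 in the EA1 controls and Pdgfrb in the EA3 controls, and the part of the epithelial and fibroblast genes in the members' changes was not tested.

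Stat2, the subunit that carries the activation domain of ISGF3, rose in EA1 and EA3. In EA1 it was at 7.95, 12.4, 2.46 and 9.95 CPM with DMSO on days 1, 2, 3 and 5 and at 18.0, 18.4, 19.2 and 20.1 CPM with alectinib. The treated cultures were all above the controls and nearly level over the days, and the low DMSO value of day 3 rests on 23 counts. The log2 fold change was 1.36 ± 0.31 (95% interval 0.70 to 2.02, adjusted p = 0.00451), and without day 3 it was 0.88 (adjusted p = 0.0178). In EA3 Stat2 went from 10.8, 18.1, 15.7 and 19.1 CPM to 26.1, 31.0, 34.0 and 31.2 CPM, again without overlap. That change was 0.97 ± 0.29 (adjusted p = 0.0212), and it missed the threshold without day 1 (adjusted p = 0.105) or day 2 (adjusted p = 0.0621). EA2 gave 17.2, 15.6, 16.2 and 24.1 CPM with DMSO and 27.2, 21.6, 34.5 and 23.04 CPM with alectinib. Here the groups overlapped and day 5 ran the other way, and the log2 fold change of 0.54 (95% interval -0.09 to 1.16) did not pass (adjusted p = 0.205). The means in EA1, EA2 and EA3 were 8.18 ± 4.22, 18.3 ± 3.95 and 15.9 ± 3.72 CPM with DMSO and 18.9 ± 0.920, 26.6 ± 5.80 and 30.5 ± 3.29 CPM with alectinib, so that EA1 was the lowest line in both.

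Irf9, the DNA-binding partner of Stat2 in ISGF3, was higher with alectinib on 4 of 4 days in EA2 and EA3 and on 3 of 4 in EA1. In EA3 it read 8.79, 11.3, 9.50 and 15.3 CPM with DMSO and 12.5, 16.1, 21.6 and 25.9 CPM with alectinib. The highest control, on day 5, reached the range of the treated cultures, and the log2 fold change was 0.74 ± 0.18 (95% interval 0.35 to 1.13, adjusted p = 0.00752). Without day 3 its adjusted p was 0.0632, and without the filter on low counts it was 0.0591. In EA2 the 4 daily log2 ratios were 0.70, 0.56, 0.25 and 0.31, and the fitted change of 0.46 missed the threshold (95% interval 0.07 to 0.85, adjusted p = 0.0801). EA1 had daily ratios of 0.73, -0.01, 0.46 and 0.35, with a fitted change of 0.39 (adjusted p = 0.113). An exon stretch of 2.28% of Irf9 is shared with Rnf31 on the same strand.

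Irf7, which amplifies type I interferon production and is itself a target of ISGF3, was scarce throughout, with 0 to 82 counts per library. In EA1 it read 0.837, 0.780, 0.428 and 2.33 CPM with DMSO and 2.22, 1.96, 2.80 and 4.61 CPM with alectinib. Treated cultures were higher on each day, while the day 5 control lay inside the treated range. The log2 fold change was 1.53 ± 0.52 (95% interval 0.42 to 2.64, adjusted p = 0.0356). Leaving out any 1 day ended the call (adjusted p between 0.0521 and 0.223), as did a fit without the day block (adjusted p = 0.117) or with all 26 libraries (adjusted p = 0.0552). With at least 10 counts required in every library Irf7 was not tested in any line. In EA3 Irf7 went from 0.179, 1.52, 1.45 and 4.45 CPM to 2.40, 3.93, 5.83 and 8.87 CPM. This change was 1.81 ± 0.51 (95% interval 0.72 to 2.90, adjusted p = 0.0148), with an adjusted p of 0.0830 without day 1, 0.0722 without day 3 and 0.0917 without the day block. EA2 held at most 8 counts of Irf7 in any library, and 0 on day 2 with alectinib. Its log2 fold change of -0.28 had a 95% interval from -1.69 to 1.12 (adjusted p = 0.794).

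Irf3, the constitutive sensor-activated factor, was not called in any line. In EA3 it read 30.0, 58.1, 30.5 and 45.3 CPM with DMSO and 29.5, 31.8, 25.03 and 32.5 CPM with alectinib, lower on 4 of 4 days. The treated values were close together while the controls of days 2 and 5 stood higher, and the log2 fold change of -0.41 (95% interval -0.81 to -0.02) had an adjusted p of 0.0992. In EA1 the value was -0.09 (95% interval -0.48 to 0.30, adjusted p = 0.72), and in EA2 it was -0.01 (95% interval -0.40 to 0.39, adjusted p = 0.989).

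Irf2, which can repress the sites that Irf1 activates, was lower with alectinib than with DMSO in EA3 and did not pass in EA1 or EA2. Its DMSO values in EA3 were 30.8, 35.8, 48.8 and 54.0 CPM and its alectinib values 27.2, 25.5, 25.5 and 30.3 CPM. All treated cultures were below all controls, though on day 1 the gap was small, and the daily log2 ratios were -0.18, -0.49, -0.93 and -0.83. Treated values stayed between 25.5 and 30.3 CPM while the controls rose from 30.8 to 54.0 CPM over the days. The fitted change was -0.61 ± 0.14 (95% interval -0.92 to -0.30, adjusted p = 0.00561), and it passed whichever day was left out (adjusted p between 0.00783 and 0.0467) but not with EA3 fitted alone (adjusted p = 0.0515). EA1 went from 38.2, 48.1, 47.1 and 46.5 CPM to 45.2, 49.5, 51.3 and 63.3 CPM, a log2 change of 0.21 (95% interval -0.09 to 0.51, adjusted p = 0.259). EA2 held 32.5 to 51.4 CPM with DMSO and 34.1 to 43.99 CPM with alectinib, a change of -0.12 (95% interval -0.42 to 0.18, adjusted p = 0.576).

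Irf1, whose product shares sites with that of Irf2, did not pass in any line. Its daily log2 ratios in EA3 were 0.82, 0.63, 0.16 and -0.19, in EA2 0.24, 0.01, -0.52 and -0.59, and in EA1 0.55, 0.04, 0.87 and -0.39. In each line the sign on day 1 was positive and that on day 5 negative. The fitted changes were 0.27 (95% interval -0.22 to 0.75, adjusted p = 0.372) in EA1, -0.22 (95% interval -0.69 to 0.25, adjusted p = 0.51) in EA2 and 0.36 (95% interval -0.11 to 0.83, adjusted p = 0.231) in EA3. EA1 was the lowest line with alectinib as with DMSO, and the alectinib means were 32.5 ± 6.22, 57.1 ± 13.6 and 86.1 ± 18.1 CPM in EA1, EA2 and EA3.

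Stat6, the mediator of interleukin 4 and 13 responses, rose in EA2. Its DMSO values there were 100, 104, 84.5 and 93.8 CPM and its alectinib values 138, 134, 113 and 171 CPM. No treated culture reached down to the controls, and the log2 fold change was 0.53 ± 0.13 (95% interval 0.25 to 0.80, adjusted p = 0.00844). Without day 5, the day with the widest gap, it was 0.41 (adjusted p = 0.0668), and without the filter on low counts the adjusted p was 0.0601. In EA1 Stat6 was higher on 4 of 4 days, at 136, 152, 120 and 118 CPM with DMSO and 183, 163, 152 and 167 CPM with alectinib. There 1 treated culture lay just below the highest control, and the change of 0.34 (95% interval 0.07 to 0.61) had an adjusted p of 0.0531, which became 0.0366 with DESeq2 and 0.0177 with library size as the only scaling. EA3 changed by 0.18 (95% interval -0.10 to 0.45, adjusted p = 0.303).

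Stat3, the mediator of interleukin 6 family signals, was not called in any line. EA1 had 114, 162, 199 and 137 CPM with DMSO and 173, 195, 206 and 179 CPM with alectinib, higher on 4 of 4 days with overlapping groups. Its change was 0.32 (95% interval -0.02 to 0.67, adjusted p = 0.133). In EA2 it was -0.05 (95% interval -0.40 to 0.30, adjusted p = 0.86), and in EA3 also -0.05 (95% interval -0.40 to 0.30, adjusted p = 0.839), from ranges of 123 to 211 CPM with DMSO and 119 to 216 CPM with alectinib.

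A call in 1 line and none in another does not show that the lines differ, so the alectinib effects were compared directly. In the edgeR test with 2 degrees of freedom, 0 of the 8 members passed, where 6.84% of genes did. These 976 genes became 211 without day 3, 318 without day 5, 398 with all 26 libraries (the EA3 day 7 pair included) and 1963 with DESeq2. Pair by pair 0 passed as well, where 6.44% of genes did for EA2 minus EA1, 1.79% for EA3 minus EA1 and 2.86% for EA3 minus EA2. Their unadjusted p was under 0.05 for 1 member (Irf7), 1 (Irf2) and 2 (Irf2 and Irf7). In the joint test, with an unadjusted p under 0.05 there was 1 member, Irf2 (adjusted p = 0.0542), which DESeq2's likelihood ratio test called (adjusted p = 0.0104). The effect on Irf2 in EA3 minus that in EA1 was -0.82 ± 0.20 (95% interval -1.25 to -0.39, adjusted p = 0.0556). For Irf7 the effect in EA3 exceeded that in EA2 by 2.10, with a 95% interval from 0.31 to 3.89 (adjusted p = 0.197). For Stat2 the interval of EA2 minus EA1 ran from -1.73 to 0.08 (adjusted p = 0.241), and for Stat6 that of EA3 minus EA2 ran from -0.74 to 0.04 (adjusted p = 0.324).

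In DMSO cultures 1 member had a slope over days past the threshold, in 1 line. Irf7 in EA3 DMSO cultures rose by 1.71 ± 0.48 on the log2 scale per doubling of days (adjusted p = 0.0321), where 11.3% of genes changed and 5.69% rose. This slope was lost without day 1 (adjusted p = 0.853), day 2 (adjusted p = 0.0644) or day 5 (adjusted p = 0.301). It was also lost on days not logged (adjusted p = 0.0591), and the day 1 library held 2 counts. The number of genes with a DMSO slope also turned on single days, from 1618 in EA3 to 0, 256, 2929 and 15 without day 1, 2, 3 and 5, and from 519 in EA1 to 0, 0, 1585 and 0. In EA3 with alectinib Irf7 increased by 0.82 per doubling without passing (adjusted p = 0.471), and Irf9 by 0.47 (adjusted p = 0.163), where 0.491% of genes passed. The other DMSO slopes of members did not pass (3.64% of genes did in EA1 and 0% in EA2), among them Irf2 in EA3 at 0.37 ± 0.12 (adjusted p = 0.0513). The size of the alectinib effect changed with days for 0 of 8 members in each line by edgeR and by DESeq2, none with an unadjusted p under 0.05. Over all genes edgeR called 0% in EA1, 0% in EA2 and 0.0631% in EA3, which is 0, 0 and 9 genes, against 46, 18 and 160 with DESeq2 and 52, 25 and 192 by edgeR without day 3.

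Of the other IRF and STAT genes in the table, Stat5a, which answers to growth hormone, prolactin and many cytokines, rose by 1.58 ± 0.28 in EA1 (adjusted p = 0.000986) and by 1.5025 ± 0.28 in EA2 (adjusted p = 0.0015) on the log2 scale. Its change of 0.63 in EA3 had an adjusted p of 0.0859. Stat5b changed by 0.52, 0.54 and 0.48 in EA1, EA2 and EA3, none past the threshold. Irf4, Irf8 and Stat4, which belong mainly to blood cells, had at most 7 counts in any library and Irf5 at most 15. On the opposite strand Irf1 shares 3.395% of its exon bases with Gm17334, Irf3 2.56% with Bcl2l12, Irf7 1.19% with Phrf1, Stat6 0.909% with Nab2 and Stat3 0.756% with Stat5a. The strand setting of the counter is not given in the sources used here, so reads in these stretches cannot be told apart.

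The ligands, receptors and kinases that lie upstream of the members were read from lists. All counts from lists stand beside the shares of all genes tested, of which EA1 had 19% higher and 14.6% lower, EA2 had 13% and 11.3%, and EA3 had 17.5% and 15.1%. Only 5 of 16 interferon and cytokine ligand genes passed the filter on low counts, and no type I or type II interferon gene was among them. Lif, an interleukin 6 family cytokine, fell in each line, by 2.35, 2.06 and 1.60 on the log2 scale in EA1, EA2 and EA3 (adjusted p = 0.00333, 0.00764 and 0.0255), but its EA3 call was lost with that line fitted alone. Of 13 receptor chains, EA1 had 8 higher and 1 lower, EA3 had 7 and 3, and EA2 had 3 and 3. Il6st, the shared gp130 chain that feeds STAT3, rose by 1.499, 1.48 and 1.19 in EA1, EA2 and EA3, and Il11ra1 rose by 1.59 in EA1 and 1.42 in EA3. Il4ra, the receptor chain upstream of STAT6, fell by 2.13 in EA2 and 1.79 in EA3, and Lifr fell by 1.93 and 1.47 there. Of 4 JAK genes, Jak1 rose by 0.92, 0.52 and 0.57 and Jak3 fell by 1.33, 0.94 and 1.72 in EA1, EA2 and EA3. The call of Jak1 was lost in EA2 without the filter and in EA3 with that line fitted alone, and that of Jak3 in EA2 without the day block.

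Of 10 kinases and adaptors upstream of IRF3 and IRF7, EA1 had 1 higher and 0 lower, EA2 had 2 and 1, and EA3 had 3 and 1, where 33.6%, 24.4% and 32.6% of all genes were called in either direction. Ticam1, the adaptor of endosomal RNA sensing, rose by 1.26 in EA2 and 0.79 in EA3, and Tbk1, the kinase of IRF3, by 0.51 and 0.39. None of the EA3 rises in this list passed without the day block (0 higher and 1 lower), and 1 passed without the filter on low counts or with EA3 fitted alone. Tmem173, the gene of the STING adaptor, fell by 2.31 in EA2 and 1.18 in EA3. Of 20 inhibitors, EA1 had 3 higher and 6 lower, EA2 had 1 and 7, and EA3 had 5 and 5, where all genes gave 33.6%, 24.4% and 32.6% called. The even split in EA3 depends on the setting, with 4 and 8 by DESeq2 or with all 26 libraries, 2 and 8 without the filter and 3 and 6 with EA3 fitted alone. Socs3, which blocks gp130 signaling and is a STAT3 target, fell by 0.82, 1.62 and 2.34 in EA1, EA2 and EA3 (adjusted p = 0.0357, 0.00107 and 8.28e-05). Socs5 fell by 1.02, 1.34 and 1.34, Cish rose by 0.92 in EA1 and 1.67 in EA3, and Pias1 rose by 0.73 in EA2 and 0.53 in EA3.

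**Figure D4:**
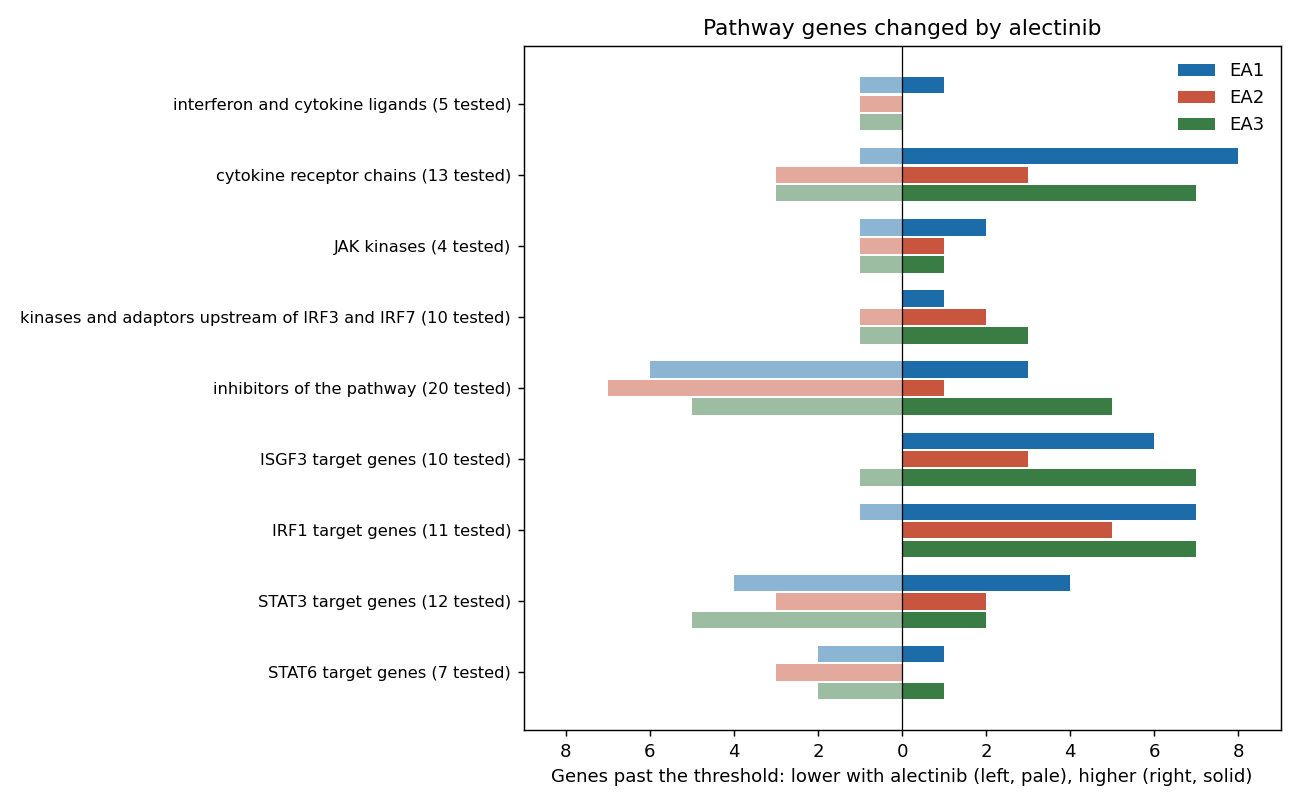
Number of listed genes past an adjusted p of 0.05 in each line, lower with alectinib to the left in pale bars and higher to the right in solid bars. ISGF3 and IRF1 target genes extend mostly to the right, and STAT3 and STAT6 target genes to both sides. Genes that passed the filter through the treated cultures favour rises.

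Known targets of the members were counted in the same way, beside 19%, 13% and 17.5% of all genes higher in EA1, EA2 and EA3 and 14.6%, 11.3% and 15.1% lower. Of 10 ISGF3 targets that passed the filter, out of 20, EA1 had 6 higher and 0 lower, EA2 had 3 and 0, and EA3 had 7 and 1. Several passed the filter through the treated cultures alone, which favours rises, so no median is given. Without the filter all 20 were tested, and EA1 had 6 higher and 0 lower, EA2 had 2 and 1, and EA3 had 10 and 1. Xaf1, a pro-apoptotic interferon target, rose by 2.63, 2.30 and 3.56, and in EA2 went from 7.78 ± 0.618 to 38.6 ± 7.07 CPM. Ifit3, an antiviral RNA-binding protein gene, was called higher in EA1, with 0 to 2 counts per control library and 3 to 21 per treated library. It was also called higher in EA3, with 0 to 1 and 1 to 34 counts. From such controls a fall could not have been seen, so no p-value is given. The gene lower in EA3 was Oasl1, named here after its value was seen, which fell by 2.19 (adjusted p = 0.00196). Requiring at least 10 counts in every library left 1 of these targets, which was higher in EA2 and was not called in EA1 or EA3.

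Of 11 IRF1 targets tested, EA1 had 7 higher and 1 lower, EA2 had 5 and 0, and EA3 had 7 and 0. Of the 3 left by requiring at least 10 counts in every library, 3, 1 and 2 were higher in EA1, EA2 and EA3. The rest had fewer than 10 counts in at least 1 library, and for such genes the filter can favour rises, as stated for the ISGF3 targets. Irf1 itself passed in none of these lines. Il15, a cytokine for natural killer and memory T cells, rose by 4.54, 2.98 and 2.41, and Gbp3 rose by 2.81 in EA2 and 3.59 in EA3. STAT3 targets were divided: of 12, EA1 had 4 higher and 4 lower, EA2 had 2 and 3, and EA3 had 2 and 5. Saa3, an acute-phase gene, rose by 5.09, 3.31 and 4.51, whereas Bcl2l1, which encodes the survival protein BCL-XL, fell by 0.98, 1.68 and 0.85, and Socs3 fell as given above. Of 7 STAT6 targets, EA1 had 1 higher and 2 lower, EA2 had 0 and 3, and EA3 had 1 and 2, where 33.6%, 24.4% and 32.6% of all genes were called, and nothing is read from these counts about STAT6 targets. In EA2 the 3 that fell were Il4ra, Socs1 (log2 change -2.565, named after its value was seen) and the mucin gene Muc5ac (log2 change -2.85). Tgm2 rose by 2.69 in EA1 and 1.25 in EA3.

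Across the 24 libraries the strongest correlation of log2 CPM between members was that of Stat2 with Irf1 (r = 0.69), followed by Stat2 with Irf9 (r = 0.65). The lowest was that of Irf1 with Stat6 (r = -0.53). Among the other genes tested, the one most alike was Gm2a for Stat2 (r = 0.92), Slc18b1 for Stat6 (r = 0.92), Rnf167 for Irf1 (r = 0.89) and Loxl1 for Irf7 (r = 0.89). For Irf3 it was Josd2 (r = 0.88), for Irf9 Klhdc8b (r = 0.86), for Stat3 Lamc1 (r = 0.84) and for Irf2 Asgr1 (r = 0.83). All these values are descriptions over libraries that share lines, days and treatment.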

How the data were processed

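RNA was sequenced with a stranded mRNA kit, and per the labels and the study's methods the authors checked reads with FastQC, trimmed them, aligned them to mm10 with STAR and deposited raw counts per gene. The annotation release and the strand setting are not given in the sources used here. Of 55415 rows, 24 held spreadsheet dates in place of symbols (0.129 to 0.201% of counts) and were left out. From the counts, edgeR 4.0.16 (limma 3.58.1, R 4.3.3; TMM factors, filterByExpr, robust quasi-likelihood test, Benjamini-Hochberg adjustment over all genes tested) fitted 24 libraries with 12 blocks of line and day and an alectinib effect per line. DMSO levels were fitted without blocks, and slopes were taken on log2 days. The labels give the day as shared, which pairs the samples, although deviations of same-day libraries correlated from -0.300 to 0.549. DESeq2 1.42.0 was an alternative. Log2 CPM used a prior count of 2. The genes named were the 8 members, the other Irf and Stat genes, the gene most correlated with each member and, of each list, at most 2 rises and 2 falls by mean change among genes called with 1 sign in 2 lines or more. Oasl1, Socs1 and the markers Epcam, Cldn4, Krt8, Ptprc, Cd68, Lum, Col1a2 and Pdgfrb fall outside this rule and were named after their values were seen. Some genes of the family are not reported here. Members and lists were chosen with earlier results of these data known. Scripts were tested on simulated data.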

Additional observations from a re-analysis of the deposited data

Results flagged for a closer look

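Of 48 groups of 4 days, 2 held a day far from the rest by Dixon's test, where chance gives about 1 in 20. Irf1 in EA2 DMSO cultures was at 84.1 CPM on day 3, with a gap of 0.917 of the range, and Irf2 in EA1 DMSO cultures was at 38.2 CPM on day 1, with a gap of 0.839.

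The alectinib effect on Irf2 in EA3 minus that in EA1 was -0.82, and Irf2 was higher with alectinib on 4 of 4 days in EA1 and lower on 4 of 4 in EA3. The edgeR test of this difference gave an adjusted p of 0.0556.

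The libraries labelled EA3 day 7 were outside the comparisons. Stat6 there was at 155 CPM with alectinib (exact Poisson 95% interval 147.8 to 162.1, counting error only) and at 82.2 CPM with DMSO (76.0 to 88.8). Only rises were searched for here. Irf1 (38.3 against 56.7 CPM), Irf2 (33.1 against 53.0 CPM) and Stat3 (114 against 132.5 CPM) were lower with alectinib than with DMSO, also with intervals that did not overlap. As given above, this pair correlated better with EA2 than with EA3.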

How the results depend on the processing

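The number of members called in EA1 (2) was 1 without the replicate block, 1 with all 26 libraries and 1 whichever day was left out. It stayed at 2 with at least 10 counts in every library, where Irf7 was not tested and Stat6 passed. In EA2 (1) it was 0 without a filter on low counts and 0 to 1 with a day left out, and in EA3 (4) it was 2 to 4. Between lines (0) it was 1 with DESeq2 and 1 with at least 10 counts in every library. In DMSO, EA2 against EA1 (4) gave 2 with library size alone and 1 with any day left out. EA3 against EA1 (2) gave 1 without the filter and 0 to 2 with a day left out. EA3 against EA2 (0) gave 1 with DESeq2, 1 without the filter, 1 with the replicate block and 0 to 1 with a day left out. The DMSO slope in EA3 (1) gave 2 with DESeq2, 0 on days not logged and 0 to 2 with a day left out. With the replicate block, EA2 against EA1 kept a count of 4 and EA3 against EA1 had 3.

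No reversed value was past the threshold. With a day left out, log2 changes ran from -0.16 to 0.0818 for Irf3, -0.67 to 0.20 for Irf7 and -0.21 to 0.0237 for Stat3 in EA2, and from -0.19 to 0.0800 for Stat3 in EA3 (0.0663 with library size alone). In DMSO, EA2 against EA1, they ran from -0.15 to 0.10 for Irf2 (0.10 with library size alone) and -0.0639 to 0.24 for Irf9. For EA3 against EA1 they ran from -0.23 to 0.0151 for Irf2, -0.12 to 0.22 for Irf9 and -0.0302 to 0.22 for Stat3. For EA3 against EA2 they ran from -0.25 to 0.36 for Irf1 (-0.0397 with library size alone), -0.11 to 0.11 for Irf2 and -0.23 to 0.15 for Irf9 (-0.13 with library size alone, -0.0037 without the filter). Irf2 there was -0.0189 with DESeq2, -0.0161 with DESeq2 size factors, -0.0235 with at least 10 counts, -0.0164 with the replicate block, -0.0325 without the filter and -0.16 with library size alone. The cause of these moves was not tested. Irf7 had 0 to 82 counts per library.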
